A study of Mus musculus with 60 samples.

Results

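Interferon-stimulated genes are the genes that a cell turns on after interferon binds its receptor. Type I interferons bind Ifnar1 and Ifnar2, the kinases Jak1 and Tyk2 are activated, and a complex that holds Stat2 and Irf9 binds the interferon-stimulated response element of target promoters, while interferon gamma acts through the GAS element. The products sense viral nucleic acid, block viral replication or feed back on the pathway. Microglia, the resident macrophages of the brain, express a low level of these genes at rest and more of them in a subset of cells described in development, ageing and injury.

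The set comprised 44 named mouse genes out of 55413 gene symbols in each deposited table, and all 44 were found. By role they were 4 transcription factors (Irf1, Irf7, Irf9 and Stat2), 11 sensors and nucleic-acid-activated enzymes (Ifih1, Ddx58, Dhx58, Zbp1, Ifi204, Eif2ak2, Oas1a, Oas2, Oas3, Oasl1 and Oasl2) and 29 effectors (Ifit1, Ifit2, Ifit3, Ifitm3, Ifi27l2a, Ifi44, Ifi47, Isg15, Isg20, Mx1, Mx2, Rsad2, Usp18, Bst2, Slfn2, Slfn5, Slfn8, Rtp4, Xaf1, Trim30a, Parp14, Cmpk2, Herc6, Gbp2, Gbp3, Igtp, Irgm1, Helz2 and Samd9l). They were given as a list of names, drawn up with earlier results of these data known.

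All mice carried Spp1-CreER and the R26-Tdtomato reporter, so that cells with a history of expressing Spp1 (osteopontin) could be sorted by red fluorescence (Tdt+), and all had a stroke as neonates. Only cells in which the Spp1 promoter drove the inducible Cre during induction are marked, and the time of induction is not in the labels used here. Microglia were sorted from the cortex, 2000 cells per library, and 52 bulk RNA libraries of 60 listed samples were used; 6 ATAC and 2 single-cell samples were not analysed here. A time course of Tdt+ microglia had 5 libraries each at 3, 7 and 14 days after injury and 4 at 28 days, at postnatal days 9, 13, 20 and 34, with no contralateral libraries. The other 3 tables each compared Tdt+ cells, Tdt- cells and cells of the contralateral cortex: day 7 (3 libraries per group), day 28 (4 per group) and day 28 after lipopolysaccharide (LPS, a bacterial cell wall component that activates Tlr4; 4 per group). The dose and time of LPS are not in the labels used here, and the contralateral libraries were read from the table columns marked as contralateral and Tdt-. The labels do not say that libraries came from separate animals, so p-values measure the spread between these libraries, which may be technical.

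Values are TPM, the estimated share of a gene's transcripts in its library after scaling by gene length, which keeps no record of sequencing depth. Between 11544 and 14093 genes reached 1 TPM per library. The sorted cells carried the markers of their label: the 10 microglia markers, P2ry12 and Tmem119 among them, summed to at least 17216 TPM in every library, and 7 T and NK cell markers summed to at most 4.37 TPM in any library. Other lists reached more. Monocyte markers summed to 14.7 to 410 TPM at day 3 of the time course (median 32.9). Border macrophage markers reached 333 TPM in a day 7 Tdt+ library, and neutrophil markers 331 TPM in a day 28 library of the time course. Spp1 itself was 534 to 922 TPM in day 7 Tdt+ libraries, 17.8 to 219 TPM in day 7 Tdt- libraries and 2.98 to 61.5 TPM in day 7 contralateral libraries. In the time course it was 16.7 to 56.2 TPM at day 3 and at most 2.05 TPM at day 7, so the 2 sets of day 7 Tdt+ libraries differed in this gene. In bulk RNA, a change in the share of cells that express a gene and a change in RNA per cell cannot be told apart.

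The pathway's transcription factors bind the promoters of these genes, and those of 6 members are shown. Of these, 5 were chosen because they hold a match to the element. Oasl1 holds none, and in unpaired fits it stayed called in LPS Tdt+ against contralateral cells whichever of the 8 libraries of these groups was left out. RefSeq promoters (GRCm38.p6, 250 bases before to 50 after the start) were found for 34 of the 44 members. A response-element core, GAAA followed after any 2 bases by GAAA, on either strand, lay in at least 1 listed window of 19 of these 34 (55.9%), counted in the same way against 3.99% of 27025 genes with a promoter of the same length. The GAS core, TTCNNNGAA, lay in 8 of 34 (23.5%), against 9.55% of genes. The last 250 bases before the start, 5′ to 3′, with the response-element matches in capitals, read as follows.
Ifit3, chr19:34583279-34583528, plus strand: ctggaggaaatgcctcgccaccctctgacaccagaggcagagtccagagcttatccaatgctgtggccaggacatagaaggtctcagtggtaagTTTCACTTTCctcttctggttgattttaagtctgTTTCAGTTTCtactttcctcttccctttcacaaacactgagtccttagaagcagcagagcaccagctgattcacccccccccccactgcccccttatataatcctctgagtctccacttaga
Ifit1, chr19:34640639-34640888, plus strand: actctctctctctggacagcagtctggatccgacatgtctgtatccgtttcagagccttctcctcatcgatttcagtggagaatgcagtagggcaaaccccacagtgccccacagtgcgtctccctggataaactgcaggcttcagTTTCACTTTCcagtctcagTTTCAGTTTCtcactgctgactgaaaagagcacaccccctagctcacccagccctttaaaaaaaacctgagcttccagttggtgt
Isg15, chr4:156200819-156201068, minus strand: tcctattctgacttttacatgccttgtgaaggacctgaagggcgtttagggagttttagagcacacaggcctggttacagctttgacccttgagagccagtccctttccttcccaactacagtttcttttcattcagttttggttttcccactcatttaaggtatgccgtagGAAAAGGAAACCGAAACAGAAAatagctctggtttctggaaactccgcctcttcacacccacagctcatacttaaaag
Irgm1, chr11:48871421-48871670, minus strand: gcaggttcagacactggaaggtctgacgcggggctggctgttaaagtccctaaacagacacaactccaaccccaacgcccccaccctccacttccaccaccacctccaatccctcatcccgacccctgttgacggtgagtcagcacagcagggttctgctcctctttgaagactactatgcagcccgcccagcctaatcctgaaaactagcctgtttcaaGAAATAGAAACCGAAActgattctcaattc
Gbp2, chr3:142620413-142620662, plus strand: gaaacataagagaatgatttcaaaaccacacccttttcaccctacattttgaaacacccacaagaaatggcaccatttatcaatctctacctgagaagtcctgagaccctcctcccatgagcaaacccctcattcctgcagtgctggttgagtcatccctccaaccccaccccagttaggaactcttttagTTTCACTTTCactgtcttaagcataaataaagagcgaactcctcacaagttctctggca
Oasl1, chr5:114922990-114923239, plus strand: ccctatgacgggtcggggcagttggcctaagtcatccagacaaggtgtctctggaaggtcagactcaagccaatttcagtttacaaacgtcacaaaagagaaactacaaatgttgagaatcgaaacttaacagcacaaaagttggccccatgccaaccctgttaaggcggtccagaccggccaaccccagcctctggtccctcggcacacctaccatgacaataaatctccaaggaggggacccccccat
Ifit3 and Ifit1, both on chromosome 19, each held 2 separate matches, beginning 156 and 122 bases before the start in Ifit3 and 104 and 85 bases before it in Ifit1. Isg15 held 3 overlapping matches and Irgm1 held 2, and Gbp2 held 1, beginning 59 bases before the start. Over the full window, with the 50 bases after the start, Oasl1 held 0, as did 14 other members. In the 250 bases before the start alone, 15 of the 34 held a match (44.1%, against 3.46% of genes) and 19 did not. A match describes the letters only, and no binding was measured here.

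In Tdt+ microglia, the mean level of the genes was lower at day 7 than at day 3, highest at day 14 and lowest at day 28. The mean of the 44 genes on the log2(TPM + 1) scale was 4.68 ± 0.26 at day 3 (SD, n = 5), 4.01 ± 0.30 at day 7 (n = 5), 5.38 ± 0.58 at day 14 (n = 5) and 3.68 ± 0.03 at day 28 (n = 4). The lowest day 14 library, at 4.77, lay above the highest day 7 library, at 4.43, and above the day 28 libraries, of which the highest was 3.70, but within the day 3 range of 4.41 to 5.07. The spread at day 14 was the widest: replicate 2 stood at 6.29 and had the highest level of 36 of the 44 genes among the day 14 libraries. Age and time since injury cannot be told apart in this table.

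**Figure D1:**
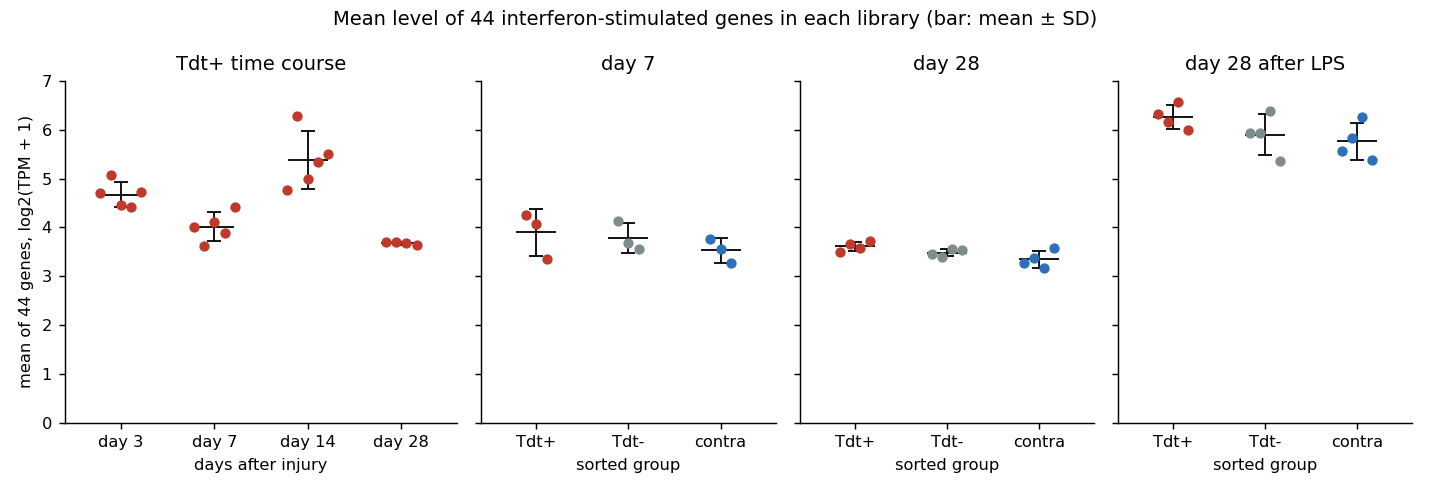
Mean of the 44 interferon-stimulated genes in each library, log2(TPM + 1), in the time course, day 7, day 28 and LPS tables; points are libraries and bars show the group mean and SD. Day 14 of the time course and the LPS groups have the highest means, with day 14 replicate 2 at 6.29.

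By role, the transcription factors averaged 5.37, 5.16, 6.31 and 5.31 at days 3, 7, 14 and 28, the sensors 4.76, 3.94, 5.07 and 3.43, and the effectors 4.55, 3.88, 5.37 and 3.54, all as mean log2(TPM + 1). All roles were highest at day 14, and the sensors and effectors, but not the transcription factors, ended well under their day 3 level.

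**Figure D2:**
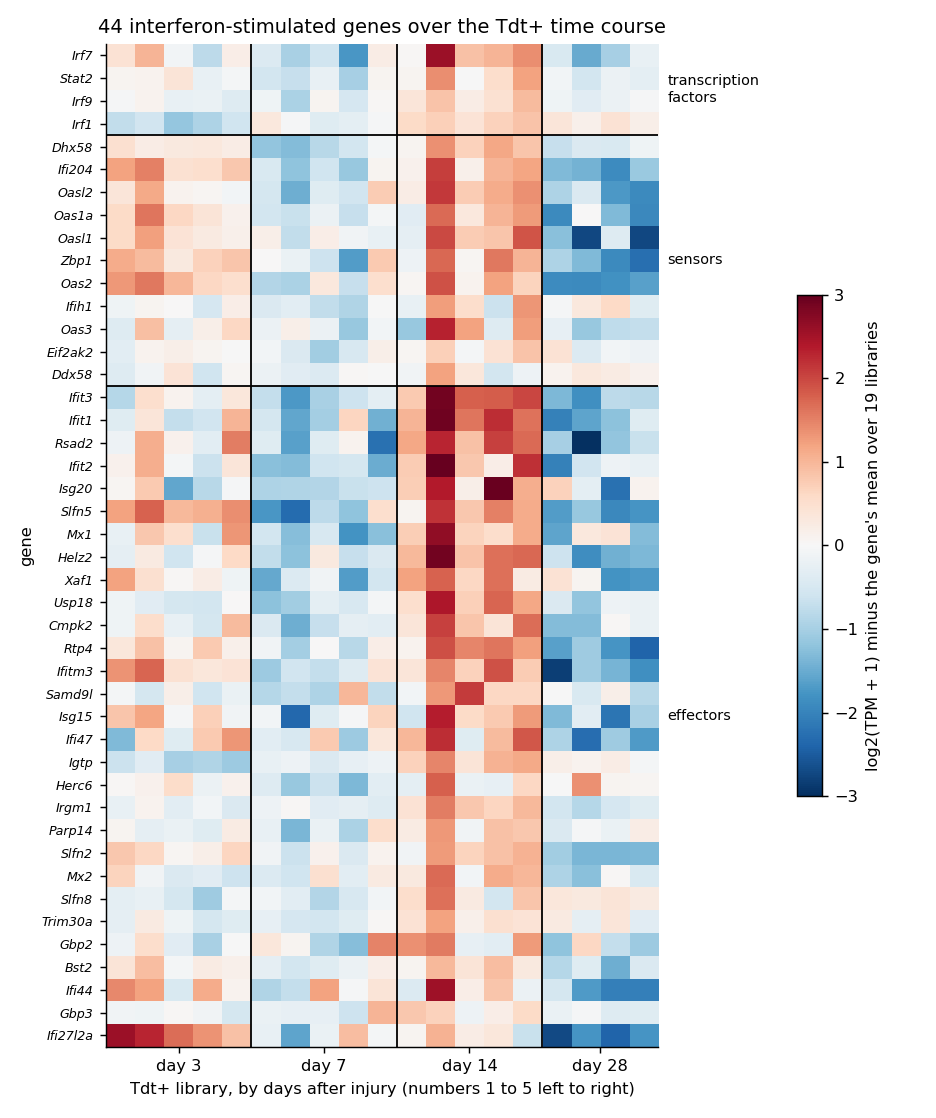
The 44 genes (rows, grouped by role and ordered by the difference between day 14 and day 7) in the 19 time-course libraries (columns), as log2(TPM + 1) minus the gene's mean over the 19 libraries; the colour scale is limited at 3 either way, which 1 of 836 cells exceeds. Day 14, and replicate 2 most of all, is the block of high values, and Ddx58 and Gbp3 show little of it.

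Between day 14 and day 7, 27 of the 44 genes rose and 0 fell (limma, Benjamini-Hochberg adjusted p under 0.05). Over all 15316 genes tested, 4.46% rose and 1.54% fell. The median difference of the 44 was 1.19 on the log2 scale, against 0.14 over all genes, and all 44 estimates were positive. All 4 transcription factors, 4 of 11 sensors and 19 of 29 effectors rose. For 18 of the 44, every day 14 library lay above every day 7 library, against 4.47% of genes tested, and for 0 every one lay under, against 1.25%.

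All transcription factors rose at day 14, Irf7 the most. Irf7 had 38.7, 58.2, 27.0, 16.2 and 33.0 TPM at day 3, 21.3, 13.9, 18.3, 7.71 and 33.6 TPM at day 7, 29.2, 174, 53.3, 58.4 and 76.2 TPM at day 14 and 20.5, 9.32, 13.7 and 24.4 TPM at day 28; Irf7 is the factor that interferon induces to amplify its own production. All day 14 libraries except replicate 1 exceeded every day 7 library, and the difference was 1.88 ± 0.42 (log2 ± SE, adjusted p = 0.00754). Stat2, a signal transducer of the type I response, had 39.0, 39.5, 47.8, 31.2 and 35.3 TPM at day 3, 24.5, 22.4, 31.1, 17.7 and 38.5 TPM at day 7, 38.8, 98.5, 36.1, 53.5 and 85.2 TPM at day 14 and 34.7, 24.5, 32.4 and 29.4 TPM at day 28. It rose by 1.12 ± 0.25 at day 14 against day 7 (adjusted p = 0.00805), with overlap between the libraries.

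Irf9, the DNA-binding partner of Stat2, had 75.3, 83.0, 66.3, 67.7 and 58.6 TPM at day 3, 71.0, 39.6, 81.4, 54.2 and 79.6 TPM at day 7, 100.3, 141, 90.6, 107 and 150.2 TPM at day 14 and 70.5, 61.2, 68.1 and 75.3 TPM at day 28. Its day 14 libraries lay above all other libraries of the time course, and the rise over day 7 was 0.87 ± 0.18 (adjusted p = 0.00520). Irf1, the factor most tied to interferon gamma, followed another course, with 32.6, 36.5, 23.8, 28.13 and 35.9 TPM at day 3, 68.9, 53.3, 42.1, 44.8 and 53.3 TPM at day 7, 82.5, 90.3, 73.4, 89.4 and 101 TPM at day 14 and 71.2, 61.2, 73.8 and 61.8 TPM at day 28. It had risen by 0.72 ± 0.15 between day 3 and day 7 already (adjusted p = 0.00228), rose by a further 0.74 ± 0.15 at day 14 against day 7 (adjusted p = 0.00432), and at day 28 differed from day 14 by -0.37 ± 0.16 (adjusted p = 0.172).

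The effectors held the largest rises at day 14. Ifit3, which stabilises Ifit1 on viral RNA in human cells, had 25.4, 66.5, 50.3, 38.2 and 59.2 TPM at day 3, 28.38, 13.6, 23.4, 30.2 and 38.2 TPM at day 7, 82.2, 357, 165, 168 and 189.7 TPM at day 14 and 17.9, 12.3, 26.9 and 26.1 TPM at day 28. Every day 14 library exceeded every other library, and the rise over day 7 was 2.72 ± 0.33 (adjusted p = 4.36e-05), 6.59-fold on the log2(TPM + 1) scale. Ifit3b is near-identical, and reads may have been split between them.

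Ifit1, which binds viral RNA lacking a host-type cap, had 7.14, 12.5, 5.29, 6.03 and 20.1 TPM at day 3, 6.16, 2.52, 4.1, 15.2 and 2.82 TPM at day 7, 20.2, 77.1, 30.6, 47.4 and 31.0 TPM at day 14 and 1.56, 2.46, 3.44 and 7.14 TPM at day 28. It rose by 2.66 ± 0.45 (adjusted p = 0.000836) and its day 14 libraries were again above all others, the lowest of them only just over the highest of day 3. Rsad2, or viperin, which makes a chain-terminating nucleotide, had 6.18, 15.9, 7.77, 5.38 and 22.01 TPM at day 3, 5.23, 1.57, 5.16, 7.53 and 0.68 TPM at day 7, 16.9, 37.7, 13.6, 32.3 and 24.9 TPM at day 14 and 2.98, 0, 2.52 and 4.04 TPM at day 28. The rise was 2.52 ± 0.50 (adjusted p = 0.00359), and day 3 and day 14 overlapped.

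Ifit2, a relative of Ifit1, had 10.1, 20.5, 8.72, 5.43 and 11.9 TPM at day 3, 3.24, 3.1, 5.64, 5.95 and 2.57 TPM at day 7, 16.02, 100.2, 16.54, 10.5 and 45.0 TPM at day 14 and 1.47, 5.82, 8.01 and 7.63 TPM at day 28. It rose by 2.49 ± 0.50 (adjusted p = 0.00361) with replicates 2 and 5 of day 14 far above the other 3. Isg20, an exonuclease that degrades RNA, had 7.63, 13.2, 1.83, 3.69 and 7.05 TPM at day 3, 3.36, 3.41, 3.54, 4.22 and 4.36 TPM at day 7, 12.8, 41.9, 8.37, 64.3 and 16.8 TPM at day 14 and 12.3, 5.73, 0.77 and 7.89 TPM at day 28. It rose by 2.27 ± 0.54 (adjusted p = 0.0128), with every day 14 library above every day 7 library. Slfn5, a Schlafen family member, had 63.2, 92.5, 53.4, 56.5 and 71.2 TPM at day 3, 7.17, 4.54, 15.1, 11 and 38.3 TPM at day 7, 28.38, 122, 47.3, 77.6 and 58.5 TPM at day 14 and 7.58, 11.6, 6.26 and 7.07 TPM at day 28. It rose by 2.24 ± 0.40 (adjusted p = 0.00150), and day 7 replicate 5 reached into the day 14 range.

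The immunity-related GTPases Igtp and Irgm1 and the coactivator Helz2 also rose, by 1.19, 1.10 and 2.18, and all of their day 14 libraries lay above all others. Usp18, the protease that removes Isg15 and damps the receptor, rose by 1.93 ± 0.32 (adjusted p = 0.000672). Isg15, the ubiquitin-like modifier, had 18.6, 24.1, 9.79, 17.1 and 9.23 TPM at day 3, 9.55, 1.16, 7.63, 9.81 and 16.7 TPM at day 7, 6.32, 55.9, 15.6, 18.1 and 26.1 TPM at day 14 and 3.42, 7.93, 1.42 and 4.67 TPM at day 28. Its estimate of 1.32 ± 0.53 did not pass (adjusted p = 0.158), and day 14 replicates 1 and 3 lay within the day 7 range.

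Among the sensors, Dhx58, Ifi204, Oasl2 and Eif2ak2 rose at day 14. Dhx58, or LGP2, a regulator of the RIG-I-like receptors, rose by 1.61 ± 0.23 (adjusted p = 0.000181). Ifi204, a DNA-binding member of the Ifi200 family whose genes share sequence, had 97.9, 121, 58.0, 59.4 and 74.2 TPM at day 3, 30.4, 17.5, 27.4, 18.4 and 44.8 TPM at day 7, 45.9, 181, 46.9, 86.7 and 96.7 TPM at day 14 and 16.1, 15.1, 10.5 and 18.9 TPM at day 28. Every day 14 library exceeded every day 7 library, and the rise was 1.58 ± 0.32 (adjusted p = 0.00457).

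Zbp1, a sensor of Z-form nucleic acid that can start necroptosis, had 27.6, 24.6, 15.2, 20.2 and 22.4 TPM at day 3, 12.3, 10.6, 7.63, 3.16 and 21.6 TPM at day 7, 10.8, 42.5, 12.7, 38.2 and 25.7 TPM at day 14 and 5.93, 4.25, 2.5 and 1.77 TPM at day 28. Its estimate of 1.17 ± 0.41 did not pass (adjusted p = 0.103). Ddx58, or RIG-I, was 0.33 ± 0.25 (adjusted p = 0.511), and the smallest estimates among effectors were Ifi27l2a at 0.44 and Gbp3 at 0.48, neither of which passed. Across all 44 genes, 13 had every day 14 library above every day 7 and day 28 library, against 0.718% of genes tested, and 7 had every day 14 library above all other days, against 0.437%. Those 7 were Ifit1, Ifit3, Irf9, Usp18, Igtp, Irgm1 and Helz2.

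**Figure D3:**
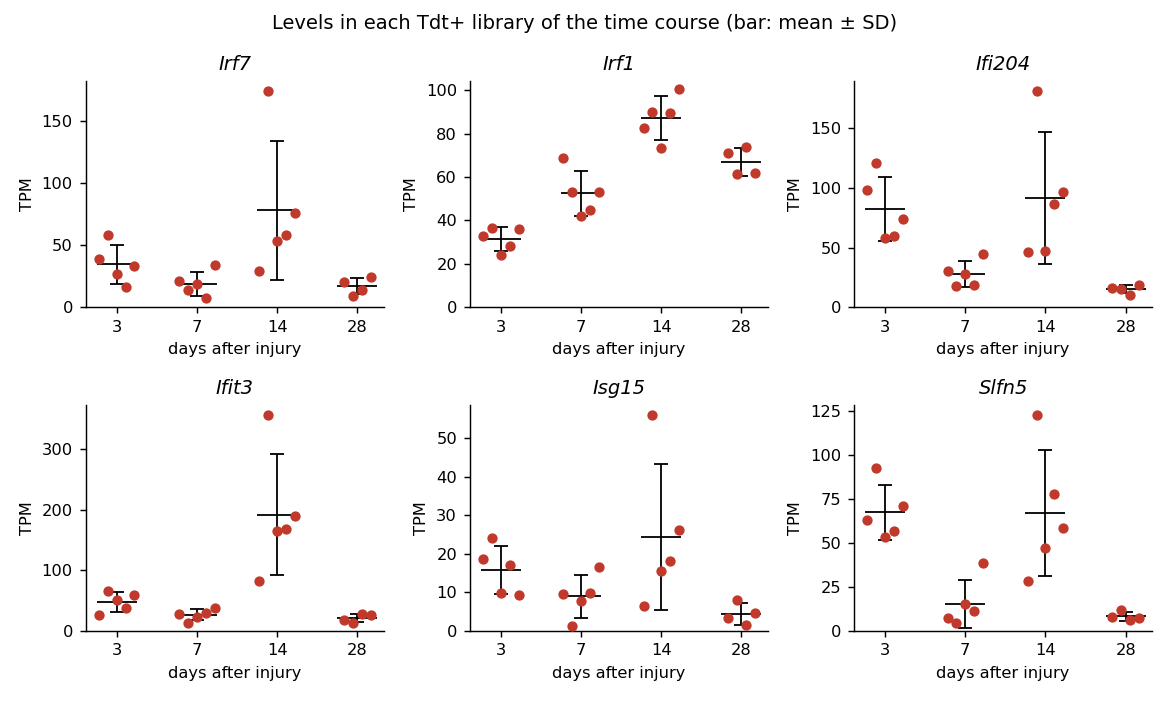
Level of Irf7, Irf1, Ifi204, Ifit3, Isg15 and Slfn5 in each time-course library, by days after injury, in TPM on a linear axis, with the group mean and SD. Irf1 keeps most of its day 14 level at day 28, while the day 28 mean lies below the day 3 mean for Ifit3, whose libraries overlap between these days, and for Slfn5, whose libraries do not.

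Without day 14 replicate 2, 22 genes still rose over day 7, all of them among the 27 (share of all genes in that fit not given here). Isg20 and Slfn5, named above, were among the 22, as were all 4 transcription factors, whereas Bst2, Cmpk2, Eif2ak2, Oasl2 and Parp14 no longer passed. Summed microglia markers were 40251 to 42590 TPM at day 14 and 31387 to 36315 TPM at day 7. The 6 border macrophage markers summed to 12.5 to 31.2 TPM at day 14 and 27.3 to 39.3 TPM at day 7, with Cd163 and Lyve1 at 0 on both days. The plasmacytoid dendritic markers Klk1 and Ly6d were listed at 0 throughout, and the 5 markers together summed to 10.5 to 20.2 TPM at day 14 and 9.60 to 20.4 TPM at day 7. The 4 astrocyte markers summed to 76.1 to 157 TPM at day 14 and 36.0 to 78.2 TPM at day 7, and Aldoc and Slc1a3 rose. The part of cell composition in the result was not tested.

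Between day 28 and day 14, 31 of the 44 genes fell and 0 rose, while 2.21% of all genes fell and 4.06% rose. The median difference was -1.83, against 0.18 over all genes. The falls covered 3 of 4 transcription factors, 7 of 11 sensors and 21 of 29 effectors, and for 27 genes every day 28 library lay under every day 14 library, against 2.55% of genes tested, and for 0 above, against 6.06%. This comparison shares the day 14 libraries with the one before.

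Ifit1 fell by 3.17 ± 0.47 (adjusted p = 0.000409), Rsad2 fell by 3.08 ± 0.53 (adjusted p = 0.00152) and Ifit3 fell by 3.06 ± 0.35 (adjusted p = 5.60e-05). Rtp4, a chaperone of receptors that inhibits flavivirus replication, had 92.9, 135, 76.6, 126 and 80.2 TPM at day 3, 67.7, 35.6, 73.6, 40.2 and 83.6 TPM at day 7, 78.6, 281, 202, 224 and 172 TPM at day 14 and 22.6, 34.3, 20.4 and 12.96 TPM at day 28. It fell by 2.99 ± 0.33 (adjusted p = 4.86e-05), and its day 28 libraries lay under those of every other day. Helz2 fell by 2.94 ± 0.42 (adjusted p = 0.000240), to between 0.29 and 2.07 TPM at day 28, against 7.44 to 34.1 TPM at day 14.

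Ifitm3, a membrane protein that blocks viral entry, had 246, 326, 133, 122 and 128 TPM at day 3, 45.0, 63.9, 57.9, 72.9 and 127 TPM at day 7, 125, 267, 157, 362 and 163 TPM at day 14 and 12.7, 45.2, 36.2 and 26.3 TPM at day 28. Its fall was 2.82 ± 0.37 (adjusted p = 0.000154), with all day 28 libraries apart from all others except replicate 2, which at 45.2 TPM lay just over the lowest day 7 library. Irf7 fell by 1.97 ± 0.44 (adjusted p = 0.0113) and Isg15 by 2.08 ± 0.56 (adjusted p = 0.0292). Zbp1 fell by 2.45 ± 0.44 (adjusted p = 0.00222) and Ifi204 by 2.35 ± 0.34 (adjusted p = 0.000332).

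Stat2 fell by 0.92 ± 0.27 (adjusted p = 0.0429) and Irf9 by 0.74 ± 0.19 (adjusted p = 0.0251), but neither passed without day 14 replicate 2. Then 25 genes fell, all of them among the 31 (share of all genes in that fit not given here). Isg15, Mx1, Mx2 and Ifi44 were the other genes lost without that library. Ddx58 at 0.05 ± 0.26 and Herc6 at 0.04 ± 0.39 were the estimates nearest to no difference, and both turn negative after quantile normalization.

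In the earlier interval 38 of the 44 estimates were negative. Between day 7 and day 3, 2 genes rose (Irf1 and Igtp) and 7 fell (Slfn5, Ifi27l2a, Ifi204, Mx1, Oas2, Ifitm3 and Dhx58), while 9.93% of all genes rose and 4.42% fell. The median was -0.67, against 0.18 over all genes. Slfn5 fell by 2.39 ± 0.40 (adjusted p = 0.000330), and its day 7 libraries lay under all day 3 libraries.

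Ifi27l2a, a mitochondrial protein whose function is little known, had 607, 499, 326, 257 and 186 TPM at day 3, 86.0, 33.0, 87.3, 192 and 97.8 TPM at day 7, 107, 208, 119, 129 and 63.6 TPM at day 14 and 14.7, 29.1, 18.2 and 29.1 TPM at day 28. It fell by 1.98 ± 0.38 at day 7 (adjusted p = 0.00110), with day 7 replicate 4 reaching the lowest day 3 value. Ifi204 fell by 1.56 ± 0.32 (adjusted p = 0.00225) and Dhx58 by 1.09 ± 0.23 (adjusted p = 0.00252), each with every day 7 library under every day 3 library. In all, 5 of the 44 genes were separated in this direction, against 4.17% of genes tested, and 1 in the other, against 8.30%. Ifi204 and Dhx58 were not as low in the Tdt+ libraries of the separate day 7 table. There they had 63.2 to 110 TPM and 89.6 to 203 TPM.

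Mx1, a dynamin-like GTPase that traps viral nucleocapsids, had 15.1, 31.6, 25.5, 10.7 and 45.7 TPM at day 3, 11.7, 6.68, 12.4, 4.4 and 6.74 TPM at day 7, 30.1, 117, 28.5, 26.0 and 39.5 TPM at day 14 and 5.24, 22.1, 23.6 and 6.6 TPM at day 28. It fell by 1.42 ± 0.46 at day 7 (adjusted p = 0.0421). Oas2, which makes the second messenger of RNase L on double-stranded RNA, had 32.5, 40.0, 26.2, 19.9 and 18.2 TPM at day 3, 6.39, 6.09, 15.8, 7.47 and 18.3 TPM at day 7, 13.1, 50, 13.8, 30.2 and 20.6 TPM at day 14 and 2.7, 2.6, 2.88 and 3.37 TPM at day 28. It fell by 1.34 ± 0.35 at day 7 (adjusted p = 0.0128), and Ifitm3 fell by 1.34 ± 0.35 (adjusted p = 0.0132). Igtp, which guards against vacuolar pathogens, had 32.6, 40.7, 25.6, 27.1 and 23.9 TPM at day 3, 44.2, 46.2, 37.8, 43.4 and 46.2 TPM at day 7, 84.7, 144, 68.2, 108 and 114 TPM at day 14 and 58.3, 55.4, 60.5 and 49.8 TPM at day 28. It rose by 0.55 ± 0.18 at day 7 (adjusted p = 0.0405).

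Irf7 differed by -0.86 ± 0.42 (adjusted p = 0.185), Stat2 by -0.54 ± 0.25 (adjusted p = 0.165) and Ifit3 by -0.82 ± 0.33 (adjusted p = 0.113) between day 7 and day 3. None of these passed. The number called was sensitive to the fit: 14 genes (1 up, 13 down) passed after quantile normalization and 17 (2 up, 15 down) when only the 2 groups were fitted. Over all genes, 904 rose and 886 fell after quantile normalization, and the share in the fit of only the 2 groups is not given here. The border macrophage markers summed to 27.3 to 39.3 TPM at day 7 and 145 to 209 TPM at day 3, 4 of the 6 falling, while 9 of 10 microglia markers rose. Monocyte markers summed to 10.65 to 70.1 TPM at day 7 and 14.7 to 410 TPM at day 3, and 1 of the 4 tested, Fn1, fell. The part of these shifts in the result was not tested.

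Over the whole span, 3 genes rose between day 3 and day 28 (Irf1, Igtp and Slfn8) and 20 fell. Of all genes, 35.6% rose and 7.97% fell. The median of the 44 was -0.92 and that of all genes 0.56; after quantile normalization these were -1.42 and 0.09, and 1 gene rose (Irf1) and 28 fell. The largest falls were those of Ifi27l2a (-3.91 ± 0.40, adjusted p = 1.81e-07), Slfn5 (-2.91 ± 0.43, adjusted p = 1.74e-05), Oas2 (-2.81 ± 0.37, adjusted p = 5.01e-06), Ifitm3 (-2.64 ± 0.37, adjusted p = 1.14e-05), Zbp1 (-2.38 ± 0.44, adjusted p = 0.000204) and Ifi204 (-2.33 ± 0.34, adjusted p = 1.84e-05). In each of these 6, every day 28 library lay under every day 3 library, as for 17 of the 44 genes in all, against 6.63% of genes tested; 3 lay wholly above, against 28.8%. Over the same span all 4 border macrophage markers tested fell, with a median of -3.27, their summed level being 8.38 to 40.8 TPM at day 28 and 145 to 209 TPM at day 3, and 9 of 10 microglia markers rose. Of 4 monocyte markers tested, Fn1 fell and Ccr2 rose. The part of these shifts in the result was not tested.

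Irf1 rose by 1.08 ± 0.16 over the same span (adjusted p = 1.79e-05), Igtp by 0.90 ± 0.19 (adjusted p = 0.000624) and Slfn8, another Schlafen gene, by 0.76 ± 0.30 (adjusted p = 0.0457). Slfn8 had 40.5, 42.1, 34.1, 23.1 and 47.2 TPM at day 3, 47.0, 39.5, 26.4, 35.0 and 46.8 TPM at day 7, 71.7, 159, 60.3, 33.5 and 89.4 TPM at day 14 and 63.4, 60.8, 65.0 and 60 TPM at day 28. Its day 28 libraries were tightly grouped and all above the day 3 libraries. After quantile normalization Igtp (adjusted p = 0.0935) and Slfn8 (adjusted p = 0.511) no longer passed. Irf9, Stat2 and Usp18 were at -0.02, -0.34 and -0.19, and none of them passed.

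Across all genes, normalization moved the balance of calls in the time course. Day 7 against day 3 gave 1521 higher and 677 lower genes as deposited and 904 and 886 after quantile normalization, and day 14 against day 7 gave 683 and 236 as deposited and 367 and 317 after it. Day 28 against day 14 gave 622 and 339 as deposited and 371 and 428 after it, and day 28 against day 3 gave 5460 and 1221 as deposited and 2021 and 2026 after it. No estimate of the 44 genes changed sign for day 14 against day 7. Mx2, Slfn8, Gbp2 and Gbp3 did for day 7 against day 3, and Ifih1, Ddx58, Trim30a and Herc6 for day 28 against day 3.

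Upstream genes of the pathway were followed as separate lists. Of 21 interferon ligand genes, none passed the filter on low values in the time course, and Ifnb1 was listed at 0 in 16 of 19 libraries, with 2.53 TPM in 1 day 7 library and 1.42 and 1.62 TPM in 2 day 14 libraries. Among the receptor chains at day 14 against day 7, Ifngr2, of the interferon gamma receptor, rose by 0.72 ± 0.19 (adjusted p = 0.0237). Ifnar1 and Ifnar2 were at -0.10 and 0.21 and did not pass.

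Of 15 upstream sensors and adaptors, 7 rose at day 14 against day 7, led by Tlr3, the endosomal receptor for double-stranded RNA (1.31 ± 0.30, adjusted p = 0.0103), and Cgas, the cytosolic DNA sensor (1.02 ± 0.21, adjusted p = 0.00468). Of 10 feedback inhibitors, 3 rose: Socs1, an inhibitor of Jak kinases (1.32 ± 0.33, adjusted p = 0.0169), the RNA editor Adar (1.04 ± 0.21, adjusted p = 0.00363) and the DNA exonuclease Trex1 (1.00 ± 0.17, adjusted p = 0.00115). Of 58 other interferon-induced genes, 27 rose and 0 fell, with a median of 0.91. Ifit3b (3.13), Ifi209 (2.17), Ifi211 (2.15), Phf11d (2.07), Tgtp2 (1.81) and Ifi213 (1.79) were the largest of these log2 differences.

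At day 28 against day 14, Trex1 fell by 1.38 ± 0.18 (adjusted p = 0.000154), whereas none of the 15 upstream sensors and adaptors passed. Of the 58 other interferon-induced genes, 24 fell and 0 rose. The chemokine Cxcl10 fell the most, by 3.68 ± 0.95 (adjusted p = 0.0254), followed by Ifit3b at -3.59 and Oas1g at -2.95. Cxcl10 had 2.39, 9.79, 10.9, 2.33 and 41.3 TPM at day 3, 16.3, 0, 22.4, 13.1 and 5.83 TPM at day 7, 21.5, 137, 34.3, 112 and 45.9 TPM at day 14 and 0, 8.65, 22.02 and 0.72 TPM at day 28. Its day 14 libraries overlapped with all other days.

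After LPS at day 28, the genes stood high in every group. The mean of the 44 genes was 6.27 ± 0.25 in Tdt+ libraries, 5.90 ± 0.42 in Tdt- libraries and 5.76 ± 0.38 in contralateral libraries (log2(TPM + 1), SD, n = 4 each). Without LPS at the same age, the means were 3.62 ± 0.09, 3.48 ± 0.08 and 3.35 ± 0.17 in the same 3 groups. The LPS and unstimulated libraries were deposited as separate tables, so treatment and table cannot be told apart and no test was made. All 4 LPS libraries lay above all 4 unstimulated libraries for 40 genes in Tdt+ cells, 38 in Tdt- cells and 39 in contralateral cells, against 17.1%, 16.1% and 16.7% of all genes.

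The median difference between the log2 group means, LPS over no LPS, was 2.55 in Tdt+ cells, 2.18 in Tdt- cells and 2.13 in contralateral cells. In Tdt+ cells it ran between 0.45 for Irf1 and 5.04 for Oasl1, an enzymatically inactive relative of the oligoadenylate synthetases that in mice restrains Irf7 translation. The 4 genes whose Tdt+ libraries overlapped were Irf1, Ddx58, Trim30a and Igtp. Zbp1 differed the most in Tdt- and contralateral cells, by 4.94 and 5.83.

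Among the LPS groups, Tdt+ cells had 3 of the 44 genes higher and 0 lower relative to contralateral cells, while 0.896% of all genes were higher and 0.455% lower. The median of the 44 was 0.35, against -0.12 over all genes, and 37 of 44 estimates were positive. Oasl1, Rsad2 and Gbp2 passed. Oasl1 had 119, 78.3, 138 and 100.4 TPM in Tdt+ libraries, 67.8, 64.0, 80.9 and 36.2 TPM in Tdt- libraries and 26.5, 26.5, 49.5 and 30.5 TPM in contralateral libraries. Every Tdt+ library exceeded every contralateral library, by 1.70 ± 0.27 on the log2 scale (adjusted p = 0.00689), and the Tdt- libraries lay between, with replicate 4 inside the contralateral range.

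Rsad2 had 103, 44.5, 57.8 and 23.1 TPM in Tdt+ libraries, 40.8, 25, 34.5 and 9.7 TPM in Tdt- libraries and 11.4, 8.3, 11.1 and 11.2 TPM in contralateral libraries. The Tdt+ libraries were again all higher, by 2.16 ± 0.45 (adjusted p = 0.0340), and Tdt- replicate 4, at 9.70 TPM, fell within the contralateral range. Gbp2, a guanylate-binding GTPase that attacks pathogen vacuoles, had 148, 40.9, 63.5 and 125 TPM in Tdt+ libraries, 70.8, 25.6, 49.3 and 51.7 TPM in Tdt- libraries and 19.4, 17.3, 29.9 and 27.2 TPM in contralateral libraries. Its difference was 1.82 ± 0.39 (adjusted p = 0.0429), and Tdt+ replicates 1 and 4 were the high ones. Ifih1, or MDA5, the sensor of long double-stranded RNA, was at 0.87 ± 0.20 and narrowly missed (adjusted p = 0.0519), though its groups did not overlap.

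Leaving out each of the 8 Tdt+ and contralateral libraries in turn left Oasl1 called in all 8 limma fits (adjusted p between 0.00568 and 0.0346). Rsad2 and Gbp2 each passed in 1 of the 8 (adjusted p between 0.0144 and 0.132 for Rsad2, and between 0.0115 and 0.154 for Gbp2) in these unpaired fits; with the replicate block and no library left out they passed at adjusted p = 0.00129 and 0.00136, and leaving out libraries under the block was not run. Oasl1 was the 1 gene left without Tdt+ replicate 1 or 3, or without contralateral replicate 1, 2 or 3. Leaving out the libraries numbered 4 in all 3 groups gave 6 genes, and leaving out those numbered 3 gave 1. The share of all genes called in these fits without some libraries is not given here.

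The LPS libraries tended to order by number. Those numbered 3 had the highest level of 24, 33 and 35 of the 44 genes in Tdt+, Tdt- and contralateral cells, and those numbered 4 the lowest of 24, 30 and 18, although contralateral replicate 1 was also lowest in 18. With the number as a replicate block, 12 genes were higher and 1 lower in Tdt+ relative to contralateral cells, against 2.41% and 4.53% of all genes. The higher ones were Rsad2, Gbp2, Ifit1, Oasl1, Cmpk2, Isg15, Ifit3, Mx1, Ifih1, Ifit2, Usp18 and Parp14, and Trim30a was lower by 0.45 ± 0.09 (adjusted p = 0.0111).

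Ifit1 had 134, 87.0, 112 and 32.4 TPM in Tdt+ libraries, 72.8, 53.6, 87.4 and 10.5 TPM in Tdt- libraries and 28.17, 26.1, 44.5 and 7.82 TPM in contralateral libraries. Each Tdt+ library exceeded the contralateral library of its number, and the blocked difference was 1.79 ± 0.19 (adjusted p = 0.000185), against an adjusted p of 0.298 without the block. Ifit3 had 323, 225, 318 and 90.9 TPM in Tdt+ libraries, 185, 136, 242 and 48.6 TPM in Tdt- libraries and 109, 112, 157 and 49.1 TPM in contralateral libraries. The blocked difference was 1.11 ± 0.13 (adjusted p = 0.000403), against 0.444 without the block, and number 4 was low in all 3 groups. Isg15 had 108, 108, 149 and 68.7 TPM in Tdt+ libraries, 87.0, 66.3, 129.8 and 36.6 TPM in Tdt- libraries and 38.1, 52.7, 125 and 11.5 TPM in contralateral libraries. The blocked difference was 1.31 ± 0.27 (adjusted p = 0.0155), against 0.400 without the block.

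Taking same-numbered libraries alone, 23 genes were higher in the Tdt+ than in the contralateral library in all 4 pairs, against 7.57% of genes tested, and 4 were lower in all 4 (Irf1, Slfn8, Trim30a and Eif2ak2), against 20.8%. The mean of the 44 was higher in the Tdt+ library in every pair, by 0.31 to 0.77. The groups as wholes did not overlap for 8 genes that were higher (Ifih1, Mx2, Oas3, Oasl1, Rsad2, Parp14, Cmpk2 and Gbp2), against 2.30% of genes, and for 1 that was lower, Eif2ak2, the kinase PKR that halts translation, against 4.75%.

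**Figure D4:**
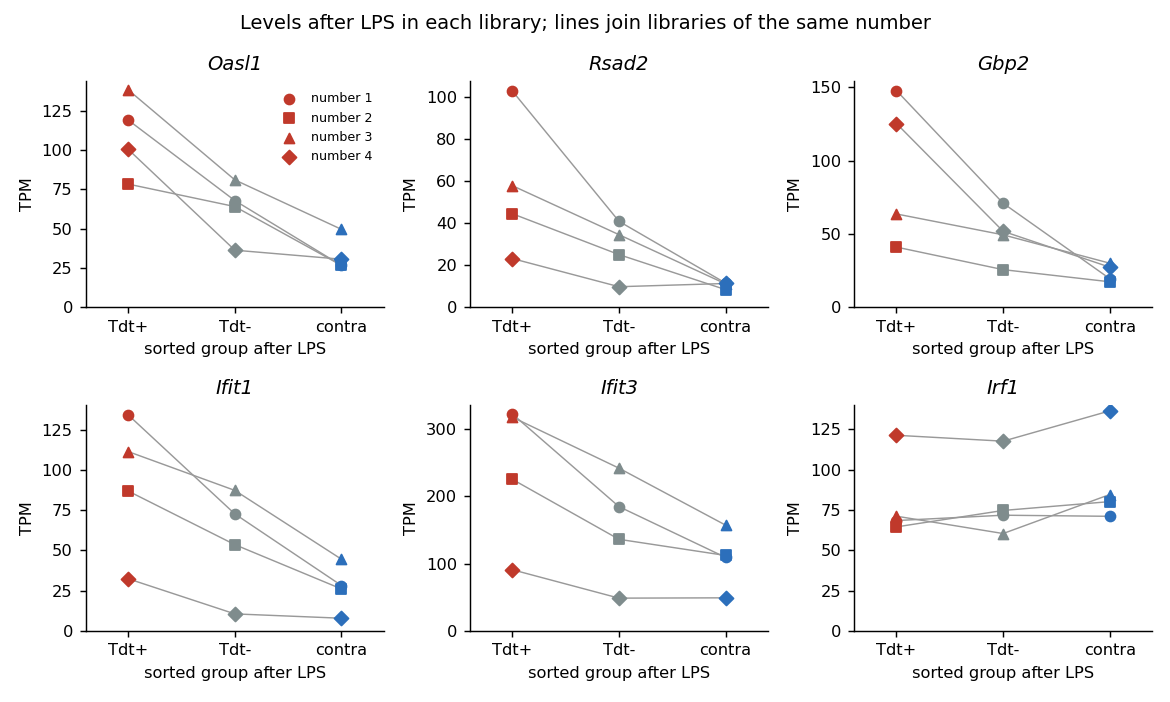
Level of Oasl1, Rsad2, Gbp2, Ifit1, Ifit3 and Irf1 in the LPS libraries, in TPM on a linear axis, for Tdt+, Tdt- and contralateral cells; lines join libraries of the same number. Oasl1, Rsad2 and Gbp2 are higher in all 4 Tdt+ libraries than in any contralateral library, and Irf1 is lower in the Tdt+ than in the contralateral library of every number.

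None of the 4 transcription factors passed between these groups. Irf7 had 154, 162, 228 and 145 TPM in Tdt+ libraries, 124, 137, 183 and 76.2 TPM in Tdt- libraries and 72.9, 144, 183 and 91.4 TPM in contralateral libraries. Irf7 was 0.56 ± 0.30 (adjusted p = 0.534) in Tdt+ against contralateral cells, higher in all 4 pairs and overlapping between groups. Stat2 had 106, 82.5, 99.3 and 87.5 TPM in Tdt+ libraries, 83.8, 96.2, 93.5 and 69.3 TPM in Tdt- libraries and 88.2, 74.1, 111 and 115 TPM in contralateral libraries. Stat2 was -0.03 ± 0.17 (adjusted p = 0.975), with a sign that turned after quantile normalization, and Irf9 and Irf1 were at -0.19 each.

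Among sensors, Zbp1 had 101, 78.8, 134 and 114 TPM in Tdt+ libraries, 75, 66.1, 111 and 55.7 TPM in Tdt- libraries and 27.7, 74.8, 116 and 56.5 TPM in contralateral libraries. Zbp1 was 0.78 ± 0.36 (adjusted p = 0.429). Ifi204 had 253, 203, 235 and 268 TPM in Tdt+ libraries, 195, 213, 267 and 215 TPM in Tdt- libraries and 177, 223, 278 and 248 TPM in contralateral libraries. Ifi204 was at 0.06 ± 0.16 here (adjusted p = 0.937), with the 3 groups in 1 range.

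Between Tdt+ and Tdt- cells after LPS, 0 of 44 genes passed (limma; 5 at an unadjusted p under 0.05), as did 0 genes overall. The median was 0.33, against -0.03 over all genes, and 40 of 44 estimates were positive. Oasl1 was at 0.83 ± 0.27 (adjusted p = 0.888), Ifih1 at 0.53 ± 0.20 (adjusted p = 0.989) and Parp14, an ADP-ribosyltransferase, at 0.50 ± 0.21. With the replicate block, 1 gene passed, Ifit3 at 0.70 ± 0.13 (adjusted p = 0.0499), where 0.299% of genes were higher and 0.164% lower. By pairs, 22 genes were higher in the Tdt+ library in all 4, against 7.61% of genes, and 0 were lower in all 4, against 10.6%.

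Between Tdt- and contralateral cells after LPS, 0 of 44 passed (limma; 5 at an unadjusted p under 0.05), where 0.0149% of genes were higher and 0 lower. The median was 0.07, against -0.10 over all genes. With the replicate block 1 gene passed, Ifit1 at 0.92 ± 0.19 (adjusted p = 0.0487), where 0.642% of genes were higher and 0.246% lower, though the numbers did not pair these libraries by the rule used. By number, 10 genes were higher in all 4 Tdt- libraries, as were 804 of 13397 genes, and 7 were lower, against 16.2%.

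Summed microglia markers were 17216 to 26279 TPM in LPS Tdt+ libraries, 21857 to 28036 TPM in Tdt- libraries and 25773 to 35009 TPM in contralateral libraries. Monocyte markers summed to 77.6 to 210 TPM in Tdt+ libraries, 77.9 to 152 TPM in Tdt- libraries and 42.7 to 101 TPM in contralateral libraries, with Chil3 listed at 0 in all. The sums did not describe the typical marker: of 6 monocyte markers, 3 were tested and 0 passed in any of the comparisons. Their median log2 difference was -0.48 for Tdt+ against contralateral cells, -0.62 for Tdt+ against Tdt- cells and 0.26 for Tdt- against contralateral cells. Border macrophage markers summed to 14.26 to 23.7 TPM, 14.6 to 33.2 TPM and 22.6 to 31.7 TPM in the same order of groups. The part of these differences in the result was not tested.

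Of the other pathway genes, Ikbke, the kinase beside Tbk1 upstream of Irf3 and Irf7, was higher in LPS Tdt+ than contralateral cells by 3.73 ± 0.67 (adjusted p = 0.0155), the 1 of 15 upstream genes that passed. Ikbke had 140.3, 93.0, 103 and 148 TPM in Tdt+ libraries, 76.3, 35.1, 28.08 and 78.7 TPM in Tdt- libraries and 35.5, 1.1, 4.98 and 13.4 TPM in contralateral libraries. None of 10 genes of the receptor and kinase list and none of 10 feedback inhibitors passed. Ifnar1 was at 0.14 and Ifnar2 at -0.19.

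Ifnb1 had 3.02, 3.37, 1.4 and 0 TPM in Tdt+ libraries, 1.19, 0.65, 0 and 0 TPM in Tdt- libraries and 0, 0, 0 and 0 TPM in contralateral libraries. Ifnb1, the first type I interferon that macrophages make after Tlr4 is engaged, was thus listed at 0 in all contralateral libraries, and its estimate did not pass (adjusted p = 0.237). Of 58 other interferon-induced genes, 7 were higher and 0 lower: Ccl5, Cxcl10, Gbp6, Ifi211, Cd274, Ifitm2 and Ms4a4c. Ccl5, a chemokine for T cells and monocytes, had 2421, 860.0, 1546 and 2939 TPM in Tdt+ libraries, 1186, 215, 319 and 704 TPM in Tdt- libraries and 65.4, 30.1, 40.3 and 53.5 TPM in contralateral libraries. The Tdt+ and contralateral libraries did not overlap, and the difference was 5.24 ± 0.50 (adjusted p = 0.000396). Cxcl10 was higher by 2.42 ± 0.52 (adjusted p = 0.0438).

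At day 7, 0 of the 41 genes tested passed in Tdt+ against contralateral cells (limma; 9 at an unadjusted p under 0.05), where 0.0554% of genes were higher and 0.0158% lower. Oas3, Helz2 and Samd9l did not pass the filter on low values. The median was 0.14, against -0.01 over all genes, and the means of the 44 genes were 3.90 ± 0.48 in Tdt+ libraries, 3.79 ± 0.31 in Tdt- libraries and 3.53 ± 0.26 in contralateral libraries (SD, n = 3 each). Replicate 3 was the lowest of its group in 32 of the 44 genes in Tdt+, 23 in Tdt- and 19 in contralateral libraries, and replicate 1 the highest in 24, 24 and 23.

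Ifi204 came nearest, with 110.1, 104 and 63.2 TPM in Tdt+ libraries, 74.8, 64.4 and 65.0 TPM in Tdt- libraries and 29.1, 19.2 and 36.9 TPM in contralateral libraries. The Tdt+ and Tdt- libraries all exceeded the contralateral ones, by 1.68 ± 0.28 for Tdt+ (adjusted p = 0.0614) and 1.28 ± 0.28 for Tdt- (adjusted p = 0.554). Leaving out contralateral replicate 3, or testing only genes at 10 TPM or more, each gave 1 called gene. Usp18 had 28.6, 28.03 and 7.23 TPM in Tdt+ libraries, 20.9, 15.4 and 6.11 TPM in Tdt- libraries and 2.59, 4.1 and 3.62 TPM in contralateral libraries. It was at 2.13 ± 0.56 in Tdt+ against contralateral cells (adjusted p = 0.328), with replicate 3 low in both Tdt+ and Tdt- cells.

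Isg20 ran the other way, with 1.7, 0 and 1.36 TPM in Tdt+ libraries, 0, 0 and 0 TPM in Tdt- libraries and 5.57, 6.86 and 6.07 TPM in contralateral libraries. It was listed at 0 in all Tdt- libraries and in 1 Tdt+ library, and for Tdt+ against contralateral cells the estimate was -1.95 ± 0.50 (adjusted p = 0.313). Groups did not overlap for 5 genes that were higher (Ifi204, Ifi44, Oasl1, Usp18 and Slfn5; 12.2% of those tested, against 5.70% of all genes) and for Isg20, which was lower (6.65% of all genes).

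The other genes followed throughout overlapped between the day 7 groups. Irf7 had 26.7, 30.4 and 12.5 TPM in Tdt+ libraries, 45.9, 12.4 and 12.5 TPM in Tdt- libraries and 24.2, 12.02 and 7.16 TPM in contralateral libraries, and Ifit3 had 66.3, 45.3 and 4.95 TPM in Tdt+ libraries, 53.3, 40.0 and 39.7 TPM in Tdt- libraries and 45.0, 27.5 and 17.2 TPM in contralateral libraries. Zbp1 had 21.6, 19.6 and 4.62 TPM in Tdt+ libraries, 7.48, 8.75 and 4.09 TPM in Tdt- libraries and 7.55, 0.6 and 5.2 TPM in contralateral libraries. The first 2 Tdt+ libraries of Zbp1 stood above all others, and the third, at 4.62 TPM, lay within the contralateral range.

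In Tdt- against contralateral cells at day 7, 0 of 41 passed (limma; 5 at an unadjusted p under 0.05; 0 of all genes higher and 0.00791% lower), with a median of 0.23. In Tdt+ against Tdt- cells 0 passed (limma; 1 at an unadjusted p under 0.05; 0.0158% of all genes higher and 0 lower), with a median of 0.12. Tdt- replicate 3 carried more neutrophil markers than the other day 7 libraries, 310 TPM against 106 to 160 TPM. Leaving it out gave 0 called genes of the set in Tdt- against contralateral and in Tdt+ against Tdt- cells. It also gave 0 in Tdt+ against contralateral cells, where it enters only the shared estimate of spread. As 0 were called with it too, the part of neutrophil content is not shown by this. Border macrophage markers summed to 115 to 333 TPM in Tdt+ libraries, 175 to 201 TPM in Tdt- libraries and 55.7 to 189 TPM in contralateral libraries, and their part in the result was not tested.

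At day 28 without LPS, 0 of 40 genes tested passed in any of the 3 comparisons, as did 0 genes overall (limma; 6, 4 and 2 of the 40 at an unadjusted p under 0.05 for Tdt+ against contralateral, Tdt- against contralateral and Tdt+ against Tdt- cells). The medians were 0.15, 0.09 and 0.08. Oas3, Slfn5, Helz2 and Samd9l did not pass the filter on low values. The means of the 44 genes were within 3.51 to 3.71 in Tdt+ libraries, 3.39 to 3.55 in Tdt- libraries and 3.18 to 3.57 in contralateral libraries.

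Zbp1 had 2.25, 11.5, 5.63 and 2.71 TPM in Tdt+ libraries, 0.85, 1.23, 3.39 and 0.72 TPM in Tdt- libraries and 0.7, 0, 0.21 and 0 TPM in contralateral libraries. Every Tdt+ library exceeded every contralateral library, by 2.23 ± 0.49 (adjusted p = 0.631), all at low levels. Oas1a, an oligoadenylate synthetase whose relative Oas1g shares sequence, had 19.7, 21.6, 15.3 and 16.3 TPM in Tdt+ libraries, 21.6, 7.99, 13.6 and 12.4 TPM in Tdt- libraries and 2.31, 8.81, 7.56 and 9.71 TPM in contralateral libraries. It was at 1.37 ± 0.37 (adjusted p = 0.936), and the Tdt- libraries spanned both ranges. Isg15 had 6.09, 6.19, 17.7 and 9.3 TPM in Tdt+ libraries, 10.9, 1.57, 12.1 and 12.9 TPM in Tdt- libraries and 0.78, 2.58, 3.78 and 5.97 TPM in contralateral libraries. It was at 1.38 ± 0.55 (adjusted p = 0.991), with the lowest Tdt+ library only just above the highest contralateral one.

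Groups did not overlap for 5 genes that were higher in Tdt+ than contralateral cells (Ifit2, Isg15, Oas1a, Usp18 and Zbp1; 12.5% of those tested, against 1.22% of all genes) and for 0 that were lower, against 1.46%. Ifi204 had 14.09, 7.01, 14.7 and 26.3 TPM in Tdt+ libraries, 8.76, 3.67, 17.9 and 6.9 TPM in Tdt- libraries and 5.86, 7.73, 7.28 and 6.83 TPM in contralateral libraries, and Irf7 had 10.1, 11.7, 7.49 and 9.96 TPM in Tdt+ libraries, 5.34, 11.3, 17.2 and 10.4 TPM in Tdt- libraries and 10.3, 10.4, 11.4 and 12.6 TPM in contralateral libraries. Both overlapped between groups, and Irf7 lay within 5.34 to 17.2 TPM in all 12 libraries, against 72.9 to 228 TPM after LPS.

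**Figure D5:**
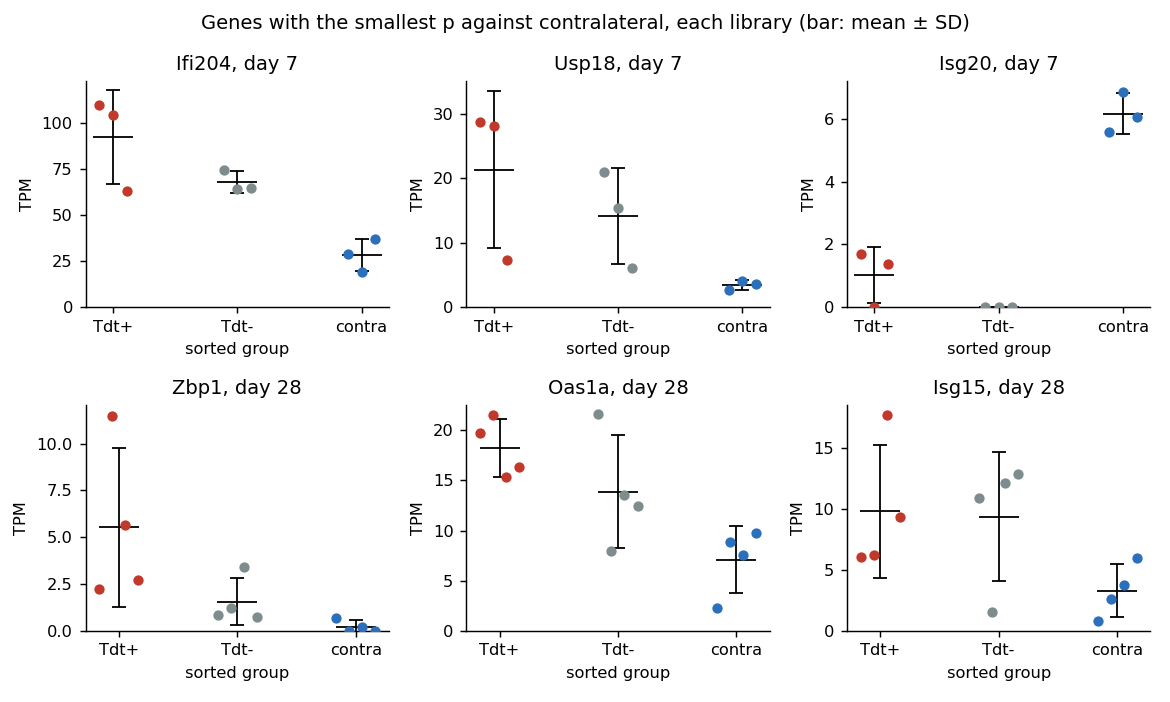
Level of Ifi204, Usp18 and Isg20 at day 7 and of Zbp1, Oas1a and Isg15 at day 28, in TPM on a linear axis, in Tdt+, Tdt- and contralateral libraries, with the group mean and SD. Each was among the 3 genes with the smallest p of Tdt+ against contralateral cells, among genes whose larger group mean reached 5 TPM, and none of them passed the test.

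Whether the difference between Tdt+ and contralateral cells itself differed between conditions was tested by joining tables with a term for each table. For LPS against no LPS, 0 of 44 passed (limma; 7 at an unadjusted p under 0.05), where 0.418% of genes were higher and 0.137% lower. Ifit1 was at 2.20 ± 0.74 (adjusted p = 0.320) and Gbp2 at 2.03 ± 0.59 (adjusted p = 0.181). With the replicate block, Ifit1 (adjusted p = 0.000440) and Gbp2 (adjusted p = 0.0410) were higher and Trim30a was lower (adjusted p = 0.0389), against 1.01% and 1.45% of genes. The block used the numbers in both tables, though by the rule used they did not pair the day 28 libraries without LPS.

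For Tdt- against contralateral cells the same interaction gave 0 of 44 (limma; 2 at an unadjusted p under 0.05; 0.0205% of genes higher and 0 lower), and 1 with the block, Ifit1 (adjusted p = 0.0373), against 0.164% higher and 0.130% lower. By the rule used, the numbers paired these libraries neither with nor without LPS. Between day 28 and day 7, 0 of 43 genes differed in their Tdt+ against contralateral difference (limma; 3 at an unadjusted p under 0.05; 0 of all genes). Usp18 was the nearest, at -1.58 ± 0.61 (adjusted p = 0.787).

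Genes that rose were found both with and without a promoter match. Of the 19 genes with a response-element core, 11 rose at day 14 against day 7, with a median difference of 1.10. Of the 15 without a match, 10 rose, with a median of 1.37, and of the 10 with no promoter entry, 6 rose, with a median of 1.38. For LPS Tdt+ against contralateral cells, 2 of the 19 with a match (Rsad2 and Gbp2) and 1 of the 15 without (Oasl1) passed. These counts describe the letters of the listed windows, of which some genes have several, and a gene counts as a match if any of its windows holds one; they were not tested.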

How the data were processed

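Bulk RNA of sorted microglia (SMART-Seq2 type libraries, 2000 cells each) was measured in 52 libraries. The submitters' processing notes name cutadapt 2.10, STAR 2.7.5c and RSEM 1.3.3 among the tools and GRCm38 among the builds, with no role or order. The authors deposited TPM values in 4 tables (time course, day 7, day 28 and LPS), per the labels. TPM keeps no depth, so depth per library is unknown. Another 7 columns (4 at day 28, 3 at day 7) matched no sample and were not used.

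Values were analysed as log2(TPM + 1) in limma 3.58.1 (R 4.3.3, lmFit and eBayes with trend). A gene was tested if it reached 1 TPM in a number of libraries no less than the size of its table's smallest group. All groups of a table shared 1 fit, 13 comparisons and 3 interactions were made, and p-values were Benjamini-Hochberg adjusted over all genes with a threshold of 0.05. The procedure was tested on simulated data with added changes larger than most differences reported here, which gives no measure of power for small differences. Some genes of the pathway and marker lists are not reported here. Fold changes on this scale understate those of low genes. The 44 genes, the pathway and marker lists and the tests were chosen with earlier results of these data known. Genes given per library were drawn, per comparison, from up to 6 rises and 6 falls that passed or else the 3 with the smallest p among those averaging at least 5 TPM, plus Irf7, Stat2, Isg15, Ifit3, Zbp1 and Ifi204. Not all of these are printed for every comparison: Stat2 and Isg15 at day 7 and Stat2 and Ifit3 at day 28 are among those left out. Others named for their role, or with the replicate block, were chosen after their values were seen. Alternatives were a pseudocount of 0.1, no filter, a filter of 10 TPM, quantile normalization, a replicate block, only the compared groups, and leaving out each library of the compared groups.

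Shared replicate numbers were taken to pair libraries where every pair's deviations from the group means correlated over 0.1. This held for LPS Tdt+ with contralateral libraries (0.19 to 0.55 over 4 pairs) and LPS Tdt+ with Tdt- libraries (0.12 to 0.52), the numbers coming from the labels, and for no other comparison. Promoters and motifs were read with Python 3.11.15 and figures drawn with matplotlib 3.10.9.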

Additional observations from a re-analysis of the deposited data

Results flagged for a closer look

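Isg15 in day 28 Tdt- replicate 2 without LPS stood apart from the other 3 libraries of its group. It was at 1.36 on the log2(TPM + 1) scale, or 1.57 TPM, against 10.9, 12.1 and 12.9 TPM in the others. Of 100 sets of values checked in this way, only this 1 stood apart. Chance alone gives about 1 in 20, so 1 of 100 is no more than chance would give.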

How the results depend on the processing

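Calls were counted again under each alternative. In Tdt+ against contralateral cells at day 7, a filter of 10 TPM gave 1 gene. After LPS, Tdt+ against contralateral cells gave 1 gene with no filter, 13 with the replicate block, 6 without all libraries numbered 4 and 1 without those numbered 3, the last 2 chosen after seeing the data. The replicate block gave 1 gene each for Tdt- against contralateral and Tdt+ against Tdt- cells after LPS, and 3 and 1 genes for the Tdt+ and Tdt- interactions with LPS. Day 7 against day 3 gave 14 genes with quantile normalization and 17 with only the 2 groups fitted. For these counts the cause was not tested.

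Leaving out 1 library at a time gave 0 to 1 genes for Tdt+ against contralateral cells at day 7 and 1 to 3 after LPS. In the time course it gave 7 to 11 for day 7 against day 3, 22 to 30 for day 14 against day 7, 25 to 33 for day 28 against day 14 and 19 to 23 for day 28 against day 3, and it gave 0 throughout for the remaining comparisons and interactions. Of 1023 values of 65 named results under the alternatives, 970 kept their direction and side of the threshold, 48 no longer passed, 5 newly passed and 0 changed direction. Of 252 medians, 3 moved beyond the spread. Outside the LPS comparisons named above the replicate block moved no count of calls by over 1.5 times; in the time course, same-numbered libraries correlated between -0.03 and 0.05, so the numbers do not pair them. As a hint from the data only, every library correlated best with its own number for Tdt- against contralateral and Tdt+ against Tdt- cells at day 28 (4 of 4) and for both contralateral comparisons at day 7 (3 of 3). In these the block called 0 of the 44 genes. Over all genes at day 7 it called 19 higher and 8 lower for Tdt+ against contralateral cells, and 0 higher and 1 lower for Tdt- against contralateral cells. With TPM alone, precision is limited by the 3 to 5 libraries per group.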
